A study of Mus musculus with 18 samples.

Results

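The 4 surfactant protein genes Sftpa1, Sftpb, Sftpc and Sftpd were measured in mouse lung around birth. Their probe sets were taken from the table of log2 expression values as those whose single annotated gene symbol is one of the 4 names. Each gene had 1 such probe set, so that 4 probe sets of 35556 and 4 genes of 19938 with a probe set of 1 symbol were described. RNA came from whole lung and was hybridised to Affymetrix Mouse Gene ST arrays, 18 arrays in 6 groups of 3 lungs.

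Pulmonary surfactant is a film of phospholipid and protein that keeps the air spaces open, and it is made and secreted by alveolar type II cells. SP-B and SP-C, encoded by Sftpb and Sftpc, are small hydrophobic proteins cut from larger precursors, and they spread the lipid at the air surface. SP-A and SP-D, encoded by Sftpa1 and Sftpd, are large soluble collectins that bind sugars on microbes and take part in innate defence, and SP-D is made by airway epithelium as well. Type II cells fill with surfactant late in gestation, and the newborn mouse needs it at the first breath.

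In ScapΔ/Δ mice a floxed Scap gene was removed by a Cre recombinase whose expression followed the SP-C promoter through a doxycycline-dependent activator, and their controls were littermates with the floxed alleles but without the activator or the Cre. SCAP carries the SREBP factors, the activators of lipid synthesis genes, to the place where they are processed, and INSIG1 and INSIG2 retain SCAP. These lungs were collected at E18.5 and at PN1, the day of birth. In Insig1/2Δ/Δ mice floxed Insig1 was removed by the same transgenes in animals that lack Insig2 in all cells, and their controls, floxed for Insig1, lack Insig2 too. These were collected at E17.5. The dams of both lines received doxycycline in early gestation only, and it was withdrawn days before any lung was collected, so that the recombination dates from the early lung epithelium and not from the ages measured. The activator was under the promoter of one of the 4 genes described here. The Scap colony was of mixed FVB/N and B6/129S6 background, and for the Insig line a background is not given in the sources used here. The epithelial deletion is incomplete in this system. The arrays carry the names of the labels, C for control and KO for deleted lungs with a number that is used once over the series.

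The targeted genes were lower in the deleted lungs. Scap was at 70.6% to 83.7% of the control mean in the 3 ScapΔ/Δ lungs of E18.5 and at 79.3% to 86.2% in those of PN1, and Insig1 was at 38.7% to 50.2% in the Insig1/2Δ/Δ lungs. The arrays KO17 and KO18, both ScapΔ/Δ at PN1, stood apart from the rest. Their correlation with the other 16 arrays over all probe sets was 0.9312 to 0.9599, against 0.9729 to 0.9975 among those 16, and their medians were 7.67 and 7.70 against 7.42 to 7.5. Differences at PN1 that rest on these arrays are therefore given with and without them. The array C21, a control of E17.5, had a mean log2 level of 11.83 over 5 cardiac muscle markers against 8.97 to 9.97 on the other 17 arrays, and KO11 and C20 had means of 8.35 and 7.97 over 4 liver markers against at most 7.33 elsewhere. The tissue label was checked against 14 markers of type II cells other than the 4 genes, whose mean log2 level was 11.02 to 11.84 on the 18 arrays.

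Sftpa1, Sftpd and Sftpc lie on chromosome 14 and Sftpb lies on chromosome 6. In the GRCm38.p6 annotation Sftpa1 spans chr14:41131788-41136373 and Sftpd chr14:41172212-41185198, with 35.8 kb between them. Between these collectin genes the annotation places the pseudogene Gm7920 and Mbl1, the gene of a serum collectin, whose own probe set read 6.06 to 6.76 and did not pass the filter on low values. Sftpc, at chr14:70520941-70524081, is 29.3 Mb from Sftpd, and Sftpb spans chr6:72304610-72314373.

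The promoters of Sftpa1 and Sftpb are printed from RefSeq (GRCm38.p6, plus strand for both). Each window holds 250 bases before and 50 bases after the annotated start, at chr14:41131538-41131837 and chr6:72304360-72304659. No promoter sequence was available here for Sftpc and Sftpd, so theirs were neither printed nor searched. Whether the motifs set Sftpa1 and Sftpb apart from Sftpc and Sftpd was therefore not tested. The letters CTCAAG, the core that NKX2-1 is known to bind in surfactant protein promoters, are in capitals.
Sftpa1: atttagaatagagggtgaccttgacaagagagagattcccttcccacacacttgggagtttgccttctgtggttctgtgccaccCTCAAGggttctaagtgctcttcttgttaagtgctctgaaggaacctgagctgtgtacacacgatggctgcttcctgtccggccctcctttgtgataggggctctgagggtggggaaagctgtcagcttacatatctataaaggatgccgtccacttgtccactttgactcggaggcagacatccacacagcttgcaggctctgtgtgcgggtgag
Sftpb: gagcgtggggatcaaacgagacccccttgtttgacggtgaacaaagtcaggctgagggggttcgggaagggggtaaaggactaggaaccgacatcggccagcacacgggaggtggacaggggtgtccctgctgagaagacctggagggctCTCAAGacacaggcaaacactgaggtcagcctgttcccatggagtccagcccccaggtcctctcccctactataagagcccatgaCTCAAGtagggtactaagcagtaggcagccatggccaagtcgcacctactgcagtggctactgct

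CTCAAG was found 1 time in the Sftpa1 window, beginning 166 bases before the start, and 2 times in the Sftpb window, beginning 100 and 15 bases before it. Of 32851 promoters of the same length 15.9% hold it on either strand. The related core CAAGTG was found 2 times in Sftpa1, at 202 and 14 bases before the start on the minus strand, and in 13.6% of all promoters. TGTTTGC, a forkhead form, was found 1 time in Sftpb, 88 bases before the start, and in 5.07% of all promoters. TGANTCA, the AP-1 form, was found 1 time in Sftpb, 18 bases before the start, where it overlaps the second CTCAAG, and in 7.81% of all promoters. The sterol response letters TCACNCCAC (1.24% of promoters) and CACCCCAC (2.87%), the forkhead form TGTTTAC (3.65%), the C/EBP form TTGCNNAA (10.8%) and the GATA form AGATAA (11.2%) were not found in either window. Both strands were searched for each motif, and a match describes letters only.

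Sftpa1 and Sftpb were lower in all 3 ScapΔ/Δ lungs than in every control at both ages, as were 21% of all probe sets at E18.5 and 11% at PN1. Sftpd was higher at each later age and overlapped between genotypes, and Sftpc differed by at most 0.22 log2 units over the 18 arrays. None of the 4 differed by genotype at an adjusted p under 0.05 in limma.

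**Figure D1:**
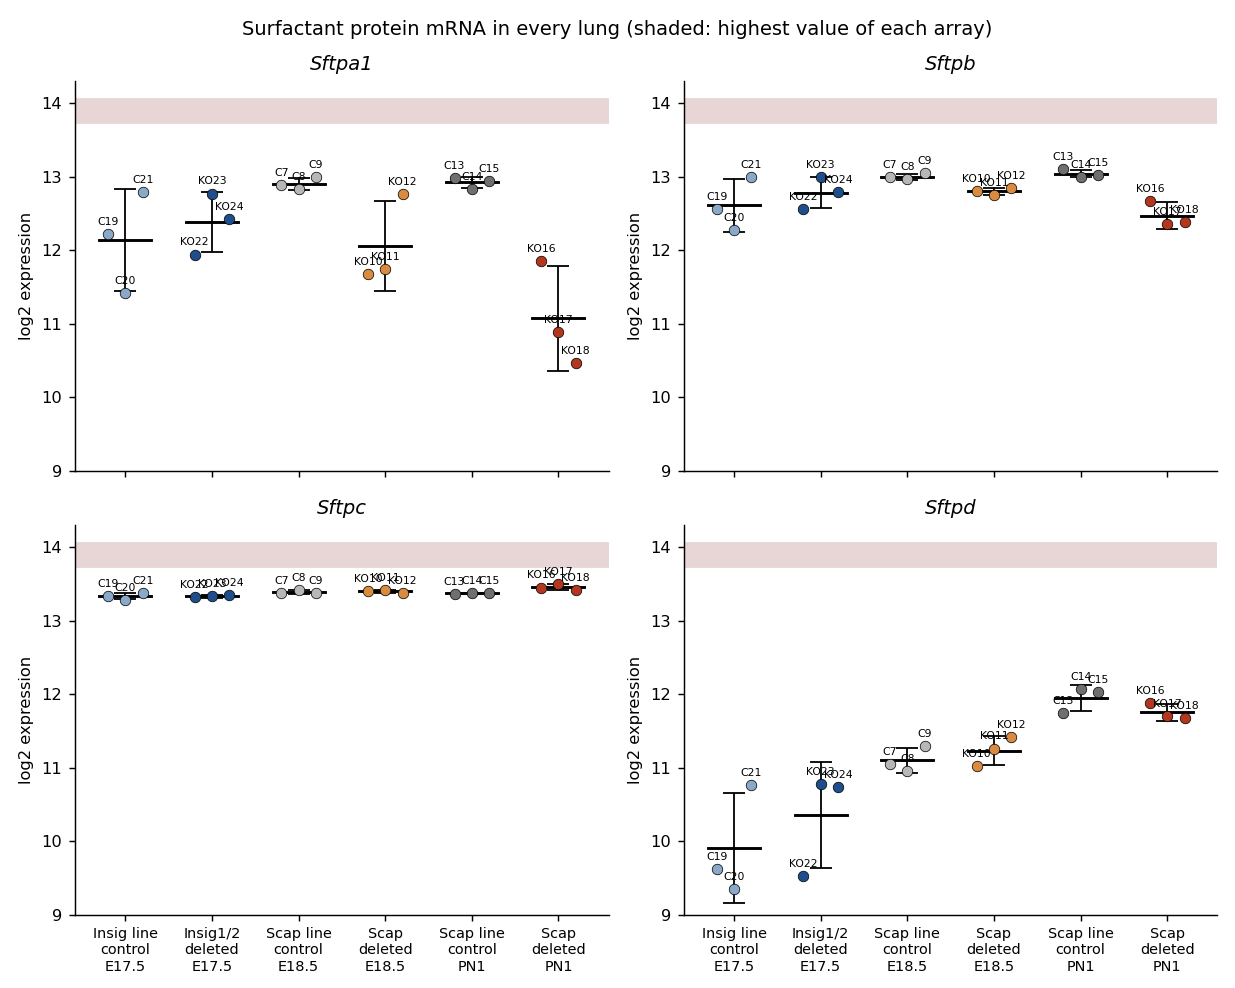
Log2 expression of the 4 surfactant protein genes on each of the 18 arrays, by group; points are lungs, horizontal lines group means, bars SD (n = 3), and the shaded band spans the highest value of each array, 13.73 to 14.05. The ScapΔ/Δ lungs lie below their controls for Sftpa1 and Sftpb, Sftpd steps up with age, and Sftpc lies just under the band in every group.

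Sftpa1, the gene of SP-A, differed most between genotypes. At E18.5 it read 12.88, 12.83 and 12.99 in the control lungs C7, C8 and C9, and 11.68, 11.74 and 12.76 in the ScapΔ/Δ lungs KO10, KO11 and KO12. KO12 was close to the lowest control and KO10 and KO11 were more than 1 log2 unit below the controls, with no overlap between groups. The means were 12.90 ± 0.08 and 12.06 ± 0.61 (SD, n = 3), a difference of -0.84 (SE 0.34) or 55.8% of the control level, with an adjusted p of 0.535 in limma and an unadjusted p of 0.0312. Without overlap and lower were 21% of all 22800 probe sets tested at this age, while 4.85% were lower at an unadjusted p under 0.05 and 0.00439% at an adjusted p under 0.05.

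At PN1 Sftpa1 read 12.98, 12.83 and 12.94 in the controls C13, C14 and C15, and 11.85, 10.89 and 10.47 in the ScapΔ/Δ lungs KO16, KO17 and KO18. All 3 deleted lungs lay at least 0.98 log2 units below the lowest control, and the arrays that stood apart were the lowest of the 18. The means were 12.92 ± 0.07 and 11.07 ± 0.71 (SD, n = 3), a difference of -1.85 (SE 0.34) or 27.8% of the control level, with an adjusted p of 0.083 in limma. At this age 11% of probe sets were lower without overlap, 20.8% were lower at an unadjusted p under 0.05 and 0.00877% at an adjusted p under 0.05. Without KO17 and KO18 the difference was -1.06 (adjusted p = 0.552 in limma, with 1 deleted lung left, assumed to vary like the other groups), and without KO16 it was -2.24 (adjusted p = 3.75e-05), in a fit in which 37.8% of all probe sets were lower at an adjusted p under 0.05.

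Set against probe sets of like level, Sftpa1 stood at the edge. Of the 867 probe sets with a mean between 12 and 13 over the 18 arrays none had a wider range than its 2.53 log2 units, where the median range was 0.55. Its differences of -0.84 at E18.5 and -1.85 at PN1 were also the largest of these 867 in either direction. Its range without KO17 and KO18 was 1.58 over 16 arrays, where 3 of 883 probe sets between 12 and 13 had a wider one, and its difference at PN1 of -1.06 was exceeded by 1 of them. For Sftpd 13 of 1632 probe sets between 11 and 12 had a wider range, and for Sftpb 152 of 867 did. At lower levels 2 type II cell markers differed more than Sftpa1, Il33 (mean 9.99) by -1.97 at PN1 and Hc (mean 10.17) by -0.97 at E18.5. At the other age they differed less, Il33 by 0.25 and Hc by -0.64.

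**Figure D2:**
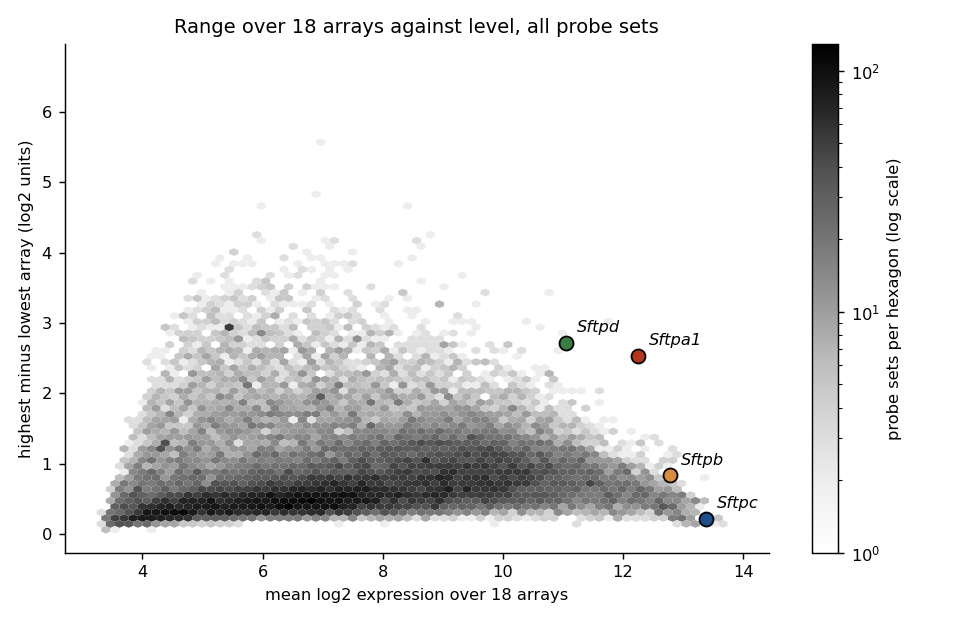
Range over the 18 arrays (highest minus lowest, log2 units) against mean log2 expression for all 35556 probe sets, shaded by the number of probe sets per hexagon on a log scale, with the 4 surfactant protein genes marked. Sftpa1 (range 2.53) and Sftpd (2.72) lie on the upper edge for their level and Sftpc (0.22) lies at the right end, where all ranges are small.

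Sftpb, the gene of SP-B, differed in the same direction by a smaller amount. It read 12.99, 12.97 and 13.05 in the E18.5 controls C7, C8 and C9, and 12.80, 12.75 and 12.85 in KO10, KO11 and KO12. The spread within each group was small and the groups did not overlap, where 21% of all probe sets were lower without overlap. The difference was -0.20 (SE 0.09, 86.8% of control, adjusted p = 0.541 in limma).

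At PN1 Sftpb read 13.10, 13 and 13.02 in C13, C14 and C15, and 12.67, 12.35 and 12.38 in KO16, KO17 and KO18. Again every deleted lung was below every control, as for 11% of all probe sets, and KO16 was the nearest to the controls. The difference was -0.57 (SE 0.09, 67.2% of control, adjusted p = 0.0792 in limma, unadjusted p = 7.09e-05). Without KO17 and KO18 it was -0.37 (adjusted p = 0.55), and without KO16 it was -0.68 (adjusted p = 6.56e-06), beside the same 37.8% of probe sets.

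Sftpc, the gene of SP-C, read 13.38, 13.42 and 13.38 in the E18.5 controls and 13.40, 13.42 and 13.37 in KO10, KO11 and KO12. The groups overlapped, and the difference was 0.0037 (SE 0.06, adjusted p = 0.987 in limma). At PN1 it read 13.36, 13.37 and 13.37 in the controls and 13.45, 13.50 and 13.42 in KO16, KO17 and KO18. The deleted lungs of PN1 lay above their controls without overlap by 0.09 (SE 0.06, adjusted p = 0.305 in limma), as did 5.59% of probe sets, and the sign turned to -0.04 after quantile normalization and after median centring. Its direction at PN1 thus depended on the scaling, which did not turn the direction of Sftpa1, Sftpb or Sftpd at either age.

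Sftpd, the gene of SP-D, read 11.05, 10.96 and 11.29 in the E18.5 controls and 11.02, 11.26 and 11.42 in KO10, KO11 and KO12. The groups overlapped and the difference was 0.13 (SE 0.13, adjusted p = 0.74 in limma). At PN1 it read 11.74, 12.07 and 12.03 in the controls and 11.88, 11.70 and 11.67 in KO16, KO17 and KO18. KO16 lay among the controls and KO17 and KO18 just below them, with a difference of -0.20 (SE 0.13, adjusted p = 0.309 in limma) that was -0.07 without KO17 and KO18.

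Whether the effect of Scap deletion differed between the ages was tested directly. The difference at PN1 minus that at E18.5 was -1.01 for Sftpa1 (SE 0.48, adjusted p = 0.265 from the interaction in limma) and -0.37 for Sftpb (SE 0.13, adjusted p = 0.265). It was 0.09 (SE 0.09) for Sftpc and -0.33 (SE 0.19) for Sftpd, with adjusted p of 0.481 and 0.284. In this limma test 0 probe sets passed an adjusted p under 0.05, and 10.1% were negative and 8.25% positive at an unadjusted p under 0.05. Without KO16 the interaction was -1.40 for Sftpa1 (adjusted p = 0.00664) and -0.47 for Sftpb (adjusted p = 0.000785), where 33.5% of probe sets were negative at an adjusted p under 0.05. It shrank without KO17 and KO18 to -0.22 for Sftpa1 and -0.16 for Sftpb, with an adjusted p of 1 for both in limma and 0 probe sets past the threshold. The size of the interaction thus rested on which deleted lungs of PN1 were in the fit.

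The lungs of a group differed in how far Sftpa1 lay from the controls, and the SREBP target Scd1, which encodes the desaturase that makes oleic acid, was read beside it. Relative to the control mean of E18.5 Sftpa1 was at -1.22, -1.16 and -0.14 log2 units in KO10, KO11 and KO12, and Scd1 was at -3.08, -3.23 and -1.72. Relative to the control mean of PN1 Sftpa1 was at -1.06, -2.03 and -2.45 in KO16, KO17 and KO18, and Scd1 was at -3.09, -3.53 and -3.99. The lung in which Scd1 was nearest to the controls was the one in which Sftpa1 was nearest to them, at each age. Srebf1, which encodes the factor SREBP-1, did not show this order, at -0.44, -0.64 and -0.66 in KO10, KO11 and KO12 and at -0.40, -0.23 and -0.26 in KO16, KO17 and KO18. The Scap probe set did not keep it either, since KO12 had the lowest Scap of its group at 70.6% of control and KO18 the highest at 86.2%. KO10 and KO11 were in opposite order for Sftpa1 and Scd1. At PN1 the nearest lung, KO16, was the deleted lung that did not stand apart from the other arrays. It was also the nearest to the controls for Sftpb and for the mean of the type II cell markers. Whether Sftpa1 follows Scd1 was not tested.

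**Figure D3:**
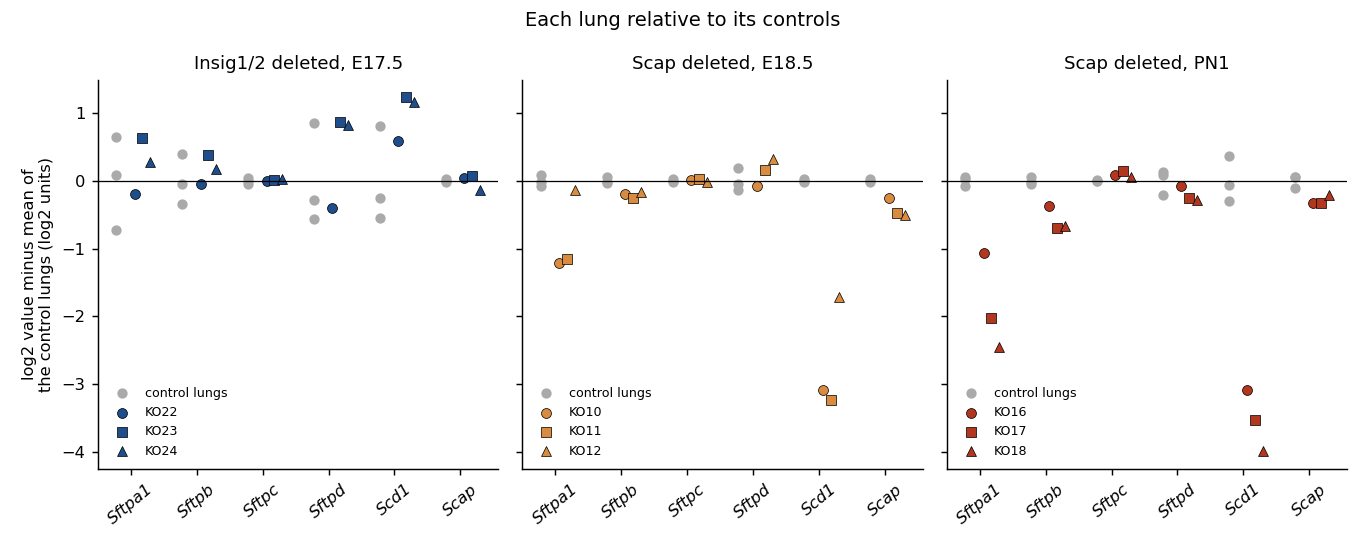
Log2 value of each lung minus the mean of its control group for the 4 surfactant protein genes, Scd1 and Scap, with control lungs in grey and each deleted lung by its own symbol. At PN1 Sftpa1 spreads from -1.06 to -2.45 and Scd1 from -3.09 to -3.99, in the same order of lungs, while Sftpc stays at the line.

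Between genes, the genotype differences were compared within arrays, as the difference of a pair of probe sets on the same array. An offset shared by all probe sets of an array cancels in it, but a scaling that varies with level does not. At PN1 the genotype difference of Sftpa1 minus Sftpb was -1.27, that of Sftpa1 minus Sftpd -1.65 and that of Sftpa1 minus Sftpc -1.94, and the within-array values of deleted and control lungs did not overlap for any of these. For Sftpb minus Sftpc it was -0.66 and for Sftpb minus Sftpd -0.38, both without overlap, and for Sftpc minus Sftpd 0.29 with overlap. These 6 values without KO17 and KO18 were -0.69, -1, -1.14, -0.45, -0.30 and 0.15 in the same order, and the remaining deleted lung KO16 lay outside the controls for the first 5. Sftpc lay near the upper end of the scale, where changes of all probe sets were small. Whether the scale limits the differences from Sftpc or from Sftpb was not tested. At E18.5 the value was -0.97 for Sftpa1 minus Sftpd, -0.85 for Sftpa1 minus Sftpc and -0.21 for Sftpb minus Sftpc without overlap. With overlap it was -0.64 for Sftpa1 minus Sftpb, -0.33 for Sftpb minus Sftpd and -0.13 for Sftpc minus Sftpd. Each pair without overlap had p = 0.1 in the exact two-sided permutation test, the smallest that 3 lungs against 3 allow, and an adjusted p of 0.225 over the 18 pairs compared (6 pairs of genes in 3 genotype comparisons). After quantile normalization no pair changed sign, but sizes moved. At PN1 Sftpc minus Sftpd became 0.08, Sftpb minus Sftpc -0.50 and Sftpa1 minus Sftpc -1.77, while Sftpa1 minus Sftpb stayed at -1.27. For the neighbours Sftpa1 and Sftpd, 35.8 kb apart, deleted lungs ranged from 0.48 to 1.34 and controls from 1.70 to 1.87 at E18.5, and at PN1 from -1.20 to -0.03 and from 0.76 to 1.24.

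With age the order was another. From E18.5 to PN1 in control lungs Sftpd rose by 0.84 (SE 0.13, 1.79-fold, adjusted p = 0.0107 in limma), from 11.10 ± 0.17 to 11.95 ± 0.18 (SD, n = 3), without overlap. At an adjusted p under 0.05, 1.19% of probe sets rose and 1.39% fell with age in controls, and 17.6% were higher without overlap. The rise no longer passed without C7 (adjusted p = 0.06), C8 (0.0625), C14 (0.0553) or C15 (0.0632), when it was 0.82, 0.77, 0.78 and 0.80. Sftpa1 and Sftpb differed by 0.02 and 0.04 between the ages in controls (adjusted p = 0.999 and 0.994), and Sftpc by -0.03 (adjusted p = 0.991), which turned to 0.04 after quantile normalization.

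In ScapΔ/Δ lungs Sftpd rose as well, by 0.52 (SE 0.13, 1.43-fold, adjusted p = 0.0205 in limma), while Sftpa1 fell by 0.99 (SE 0.34, adjusted p = 0.0429) and Sftpb fell by 0.33 (SE 0.09, adjusted p = 0.0237). In this comparison 17.5% of probe sets rose and 20.1% fell at an adjusted p under 0.05, and the deleted lungs of both ages overlapped for Sftpa1, KO16 at 11.85 lying above KO10 and KO11. Sftpc differed by 0.06 (adjusted p = 0.422), with its sign turned by both scalings. Without KO17 and KO18 the differences were 0.65 for Sftpd (adjusted p = 0.0757), -0.21 for Sftpa1 (0.77) and -0.13 for Sftpb (0.383).

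These calls in deleted lungs also rested on single arrays. For Sftpa1 the adjusted p stayed under 0.05 only without KO10 or without KO16, and leaving out any of the other 10 arrays gave 0.0573 (C13 or C14) to 0.164 (KO18), with the fall reduced to 0.64 without KO12. Sftpd no longer passed without KO10 (0.0533), KO11 (0.0603), KO17 (0.0627) or KO18 (0.0538). Sftpb no longer passed without KO11 (0.0604), KO12 (0.0746), KO17 (0.0965) or KO18 (0.0887).

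Placed in order of the group means, Sftpd ran from 9.91 in the E17.5 controls and 10.35 in the Insig1/2Δ/Δ lungs to 11.10 and 11.23 at E18.5 and 11.75 and 11.95 at PN1. The values of the 3 ages did not overlap, at 9.35 to 10.78, 10.96 to 11.42 and 11.67 to 12.07, and within each age the 2 genotypes overlapped. The E17.5 lungs are of the other line, so that line and age cannot be told apart in the first step. For Sftpa1 the order ran from 11.07 (ScapΔ/Δ, PN1) over 12.06 (ScapΔ/Δ, E18.5), 12.14 and 12.38 (the Insig line) to 12.90 and 12.92 (the Scap controls), and of these neighbours only 12.38 and 12.90 did not overlap in range. For Sftpb the means were 12.47 (ScapΔ/Δ, PN1), 12.61 and 12.78 (the Insig line), 12.80 (ScapΔ/Δ, E18.5), and 13 and 13.04 (the Scap controls), again with no overlap only between 12.80 and 13. For Sftpc they ran from 13.33 in both groups of the Insig line over 13.37 (Scap controls, PN1), 13.39 and 13.40 (E18.5) to 13.46 (ScapΔ/Δ, PN1), all within 0.22 on single arrays.

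In the Insig line at E17.5 none of the 4 genes separated by genotype. Sftpa1 read 12.22, 11.42 and 12.79 in the controls C19, C20 and C21, and 11.94, 12.77 and 12.42 in the Insig1/2Δ/Δ lungs KO22, KO23 and KO24. Sftpb read 12.56, 12.27 and 12.99 in the controls and 12.56, 12.99 and 12.79 in the deleted lungs. In both genes C21, KO23 and KO24 were high and C19, C20 and KO22 were low.

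Sftpd showed the same split, with 9.62, 9.35 and 10.77 in the controls and 9.52, 10.78 and 10.74 in the deleted lungs. The arrays C21, KO23 and KO24 were at least 1.11 log2 units above the others, more than the rise of Sftpd from E18.5 to PN1. Sftpc read 13.33, 13.28 and 13.37 in the controls and 13.32, 13.34 and 13.35 in the deleted lungs. The same sets showed in the correlations over all probe sets, which were 0.9960 to 0.9967 within C19, C20 and KO22, 0.9932 to 0.9955 within C21, KO23 and KO24, and 0.9840 to 0.9914 between the sets. The mean log2 level of 8 club cell markers, cells of the airway epithelium, was 10.61 to 10.74 on the first set and 11.36 to 11.72 on the second, and that of 14 type II cell markers was 11.17 to 11.38 and 11.54 to 11.74. It was also higher on the second set for markers of type I cells (11.03 to 11.29 and 11.36 to 11.44), macrophages (8.27 to 8.41 and 8.65 to 8.83) and erythroid cells (8.31 to 8.45 and 8.52 to 8.67). For ciliated cells, endothelium and fibroblasts the sets overlapped. The labels give no reason for the split, and what the sets differ in was not tested.

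The differences of Insig1/2Δ/Δ from control were 0.24 (SE 0.37) for Sftpa1, 0.17 (SE 0.20) for Sftpb, 0.01 (SE 0.06) for Sftpc and 0.43 (SE 0.48) for Sftpd, with adjusted p from limma of 0.859, 0.811, 0.978 and 0.802. All 4 genes overlapped between genotypes, where 5.83% of probe sets were higher and 4.22% lower without overlap. In limma 0 probe sets of 22775 passed an adjusted p under 0.05, while 2.2% were higher and 1.9% lower at an unadjusted p under 0.05. Without C20 the sign for Sftpa1 turned to -0.13. With weights for the quality of each array, which gave KO22 a weight of 0.204 and KO23 6.69, the differences were 0.89 for Sftpa1 (adjusted p = 0.0414), 0.51 for Sftpb (0.0293) and 1.12 for Sftpd (0.0213). The low KO22 thus counted little in that fit. Among the controls the high C21 counted least, with a weight of 0.56 against 1.07 for C19 and 2.3 for C20. The weights thus set C19 and C20 mainly against KO23, and genotype cannot be told apart from the split of the arrays in that fit. There 4194 of 22775 probe sets were higher and 4172 lower at an adjusted p under 0.05.

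Sftpc lay near the top of the array scale on every array. Its gap to the highest value of the array was 0.39 to 0.68 log2 units, and it ranked 16th to 30th of 35556 probe sets. Among the 119 probe sets with a mean of 13 or more the median range over 18 arrays was 0.36, against 0.22 for Sftpc, and the largest difference at PN1 was 0.34 in either direction. Between 12 and 13 that maximum was 1.85, and between 11 and 12 it was 3.54. Differences were thus small for all probe sets with a mean of 13 or more, and whether the scale left room to read a change of Sftpc was not tested.

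Sftpb was 0.79 to 1.64 log2 units under the array maximum, Sftpa1 0.91 to 3.56 and Sftpd 1.80 to 4.42. For Sftpa1 and Sftpb the control C13 had the smallest gap and KO18 the largest. No scanner values were used here, so that saturation itself was not read.

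Across the 18 arrays Sftpa1 and Sftpb varied together (Pearson r = 0.90, Spearman rho = 0.92, over all groups), and Sftpc and Sftpd had r = 0.67. Without the 3 ScapΔ/Δ lungs of PN1, Sftpb and Sftpd had r = 0.84 against 0.41 with them, and Sftpa1 and Sftpd had r = 0.64 against 0.12. These are descriptions over arrays that share line, age and genotype, with no test. The lungs KO16, KO17 and KO18 combined the lowest group mean of Sftpa1 with Sftpd at 11.67 to 11.88, above the E18.5 lungs at 10.96 to 11.42.

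**Figure D4:**
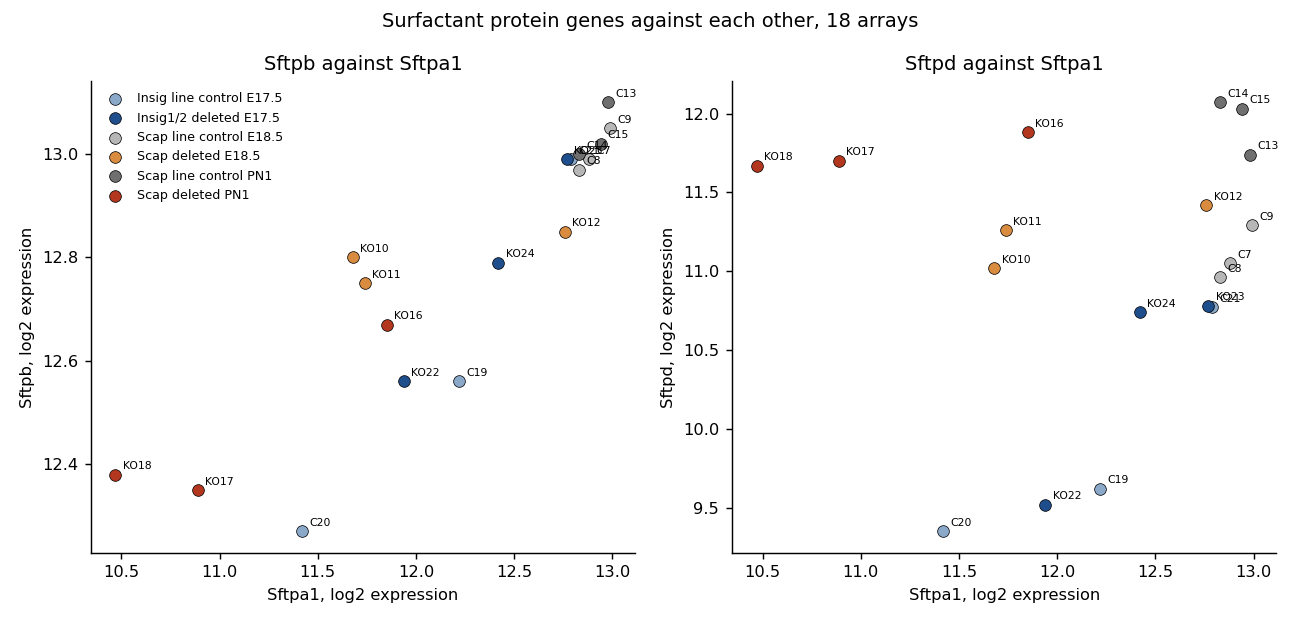
Log2 expression of Sftpb (left) and Sftpd (right) against Sftpa1 on the 18 arrays, 1 point per lung, coloured by group. Sftpb follows Sftpa1 over all groups (r = 0.90), whereas the ScapΔ/Δ lungs of PN1 leave the line of Sftpd with Sftpa1 (r = 0.12 with them and 0.64 without).

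The genes whose pattern was most like that of each surfactant protein gene were taken by Pearson r from 16461 probe sets of 1 gene symbol that passed the filter. Over 18 arrays Sftpa1 was most like Mmp17 (0.934), Zfp385b (0.933), Gimap1 (0.931), Rab27a (0.922) and Golm1 (0.922), and over the 15 arrays without ScapΔ/Δ lungs of PN1 it was most like Usf2 (0.926), Zfp385b, Lyz1, Klk14 and Mmp17 (0.896). Rab27a encodes a small GTPase of secretory organelles. Sftpb was most like Steap2 (0.912), Gstm1, Lyz1, Dram1 and Nbl1 (0.909) over 18 arrays, and like Msln (0.970), Slc34a2 (0.953), Rasgrf2, Lims2 and Plxdc1 (0.924) over 15. Slc34a2 is the phosphate transporter of type II cells.

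Sftpd was most like Zdhhc14 (0.965), Ccdc68, Cldn5, Coq10a and Slc50a1 (0.948) over 18 arrays, and like Cd151 (0.983), Lcn2 (0.980), Gabrp, Derl1 and Nadk (0.975) over 15. Lcn2 encodes lipocalin 2, which withholds iron from bacteria. Sftpc, whose range was 0.22, was most like Parp8 (0.850), Angptl6, Il17ra, Rprl1 and Lrrc52 (0.816) over 18 arrays and Fbxl13 (0.893), Elapor2, Cacnb4, Slc27a2 and Ccn3 (0.853) over 15. No gene was shared between the 18-array and the 15-array sets of Sftpb, Sftpc or Sftpd, and 2 were for Sftpa1.

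Other genes of the surfactant system were read from lists. Of 15 genes for processing of the proteins and for the lamellar body, the organelle that stores surfactant, none passed at PN1 in ScapΔ/Δ lungs and 13 were below 0. Of the 15, 7 were lower at an unadjusted p under 0.05, beside 20.8% of all probe sets. The median difference was -0.24 against -0.06 over all probe sets. Lpcat1, which makes the disaturated phosphatidylcholine of surfactant, was at -0.65 (SE 0.10, adjusted p = 0.0764 in limma), Rab27a at -1.22 (SE 0.32, adjusted p = 0.0897), Abca3, the lipid transporter of the lamellar body, at -0.39 (adjusted p = 0.0998) and Lamp3, its membrane protein, at -0.37 (adjusted p = 0.0962). The proteases that cut the SP-B and SP-C precursors read -0.24 (Napsa, adjusted p = 0.239) and -0.09 (Ctsh, adjusted p = 0.65). At E18.5 none of the 15 passed and the median was 0.02, with Lpcat1 at -0.38 and Abca3 at -0.36 (adjusted p = 0.511 and 0.521). Without KO16, 11 of the 15 passed at PN1, all lower, beside 37.8% of all probe sets lower in that fit, and without KO17 and KO18 none did.

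Of 17 transcriptional regulators of these genes none passed at PN1 and 15 were below 0. Of the 17, 10 were lower at an unadjusted p under 0.05, beside 20.8% of all probe sets, and the median was -0.30 against -0.06. Nkx2-1, a known activator of surfactant protein genes, read -0.04 (SE 0.10, adjusted p = 0.781 in limma), Cebpa, which drives type II cell maturation, -0.83 (SE 0.18, adjusted p = 0.0885), the forkhead genes Foxa1 and Foxa2 -0.62 and -0.59 (adjusted p = 0.0897 and 0.0926) and Etv5 -0.36 (adjusted p = 0.0914). At E18.5 none passed, with a median of -0.11, Nkx2-1 at -0.11 and Etv5 at -0.31. At PN1 without KO16 11 of the 17 were lower and 2 higher at an adjusted p under 0.05, beside 37.8% and 24.1% of all probe sets, and without KO17 and KO18 none passed. Cebpa read 8.97 in KO16 and 8.20 and 8.26 in KO17 and KO18, against 9.18 to 9.43 in the controls of PN1, and Foxa2 read 8.96 in KO16, among the controls at 8.88 to 9.07, and 8.12 and 8.15 in KO17 and KO18.

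**Figure D5:**
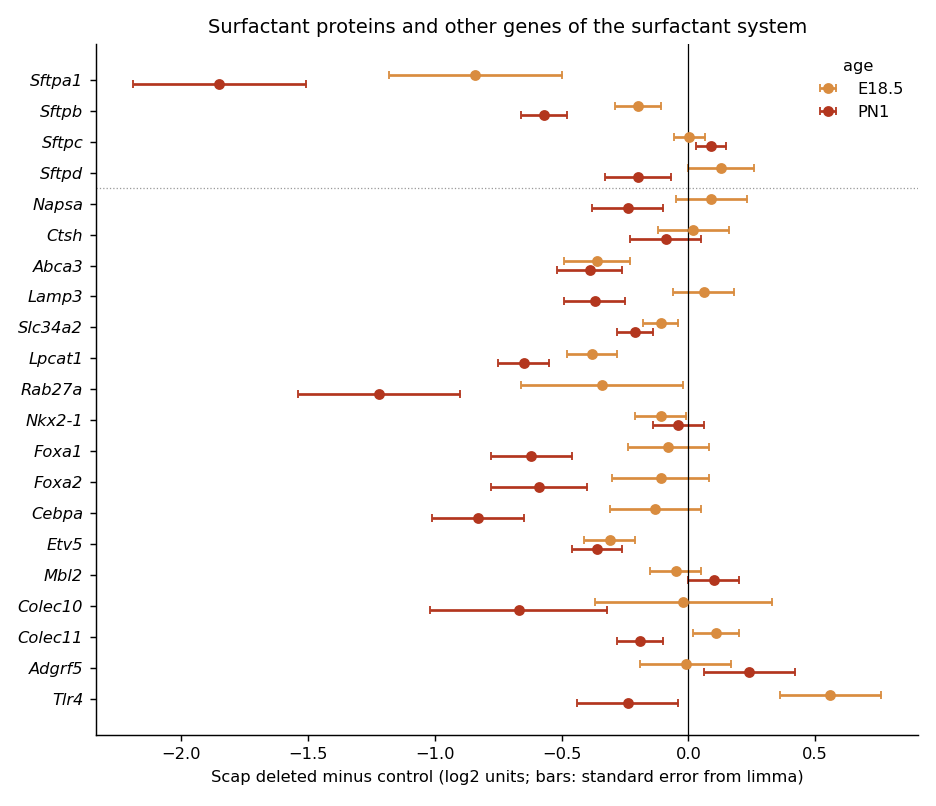
ScapΔ/Δ minus control mean at both ages, E18.5 and PN1 (log2 units, bars are the standard error from limma, 3 lungs per group) for the 4 surfactant protein genes above the dotted line and other genes of the surfactant system below it. Of the genes plotted Sftpa1 has the largest difference at both ages, Rab27a and Cebpa lie at -1.22 and -0.83 at PN1, and Nkx2-1 lies at -0.04.

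Of 5 other collectins 4 passed the filter, Mbl1 not, and none passed the test at E18.5 or PN1. Mbl2, the gene of a mannose-binding lectin, read 0.10 at PN1 (SE 0.10, adjusted p = 0.476 in limma). Of 13 genes for uptake, sensing and clearance of surfactant none passed at either age, and 10 were below 0 at PN1 with a median of -0.24. Without KO16, 2 of the 4 collectins were lower at PN1, and of the 13 uptake genes 9 were lower and 3 higher, beside 37.8% of all probe sets lower and 24.1% higher. In the Insig line none of the genes tested in these 4 lists passed.

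From E18.5 to PN1 in ScapΔ/Δ lungs 6 of 15 processing and lamellar body genes fell and none rose, among them Ggh by 0.68, Lamp3 by 0.67, Nedd4l by 0.62 and Rab38 by 0.62, beside the 20.1% of all probe sets that fell. Of the regulators 5 of 17 fell and none rose, with Cebpa at -0.93 (adjusted p = 0.00699 in limma), Hhex at -0.73, Foxa1 at -0.56 and Klf5 at -0.46. Of the collectins 3 of 4 fell, with Colec10 at -1.89 and Colec11 at -0.68, and of the uptake genes 2 of 13 rose (Bach2 by 0.98, and Adgrf5, a type II cell receptor that limits the surfactant pool, by 0.64) and 2 fell (Tlr4 by 0.73 and Tlr2 by 0.57). In controls 1 processing gene (Nedd4l, -0.73) and 1 regulator (Cebpd, -0.59) fell, 1 uptake gene (Cd14, 1.20) rose and no other collectin passed. Without KO17 and KO18, 2 processing genes and 2 collectins fell between the ages in deleted lungs, 1 uptake gene rose and 0 regulators passed, where 3.13% of all probe sets fell and 3.07% rose. Without KO16, 11 processing genes, 10 regulators, 3 collectins and 9 uptake genes fell, and 0, 1, 1 and 3 rose, where 40% of all probe sets fell and 32.1% rose.

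Markers of type II cells were read in the same lungs. Of the 14 markers tested, 6 of which are also in the lists above, none passed at PN1 and 13 were below 0. Of the 14, 12 were lower at an unadjusted p under 0.05, beside 20.8% of all probe sets, and the median was -0.38 against -0.06. At E18.5 none passed either, 8 were below 0 and 6 above. Of the 14, 4 were lower at an unadjusted p under 0.05, beside 4.85% of all probe sets, and the median was -0.10 against -0.04. At PN1 without KO17 and KO18 4 were lower at that threshold and the median was -0.20, and without KO16 12 were lower at an adjusted p under 0.05, beside 37.8% of all probe sets. Their mean level at PN1 was 11.76 to 11.83 in controls, 11.52 in KO16, 11.05 in KO17 and 11.02 in KO18, and at E18.5 it was 11.75 to 11.84 in controls and 11.62 to 11.69 in ScapΔ/Δ lungs. The mean of 8 macrophage markers was 9.36 to 9.56 in the PN1 controls, 9.61 in KO16, and 8.86 and 8.91 in KO17 and KO18. In whole lung, fewer cells of a type and less RNA of a gene per cell cannot be told apart. The part of the type II markers in the values of Sftpa1 and Sftpb was not tested. In KO16 Sftpa1 read 11.85 against 12.83 to 12.98 in the PN1 controls, and the marker mean was 11.52 against 11.76 to 11.83.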

How the data were processed

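Each probe set of the Affymetrix Mouse Gene ST arrays had a log2 value, as deposited by the authors, who analysed them in GeneSpring GX. The summarization and normalization behind them are not given in the sources used here. Groups were taken from the sample labels, and each lung was treated as 1 replicate. Arrays have no read depth, and precision is limited by their number.

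Gene symbols came from the platform annotation (21789 of 35556 probe sets have 1 symbol, 1621 several and 12146 none), and coordinates and promoters from RefSeq GRCm38.p6. After the study's prefilter, a probe set was kept if it reached the 35th percentile of an array on 66% or more of the arrays in a fit. Group means of the 12 Scap arrays (22800 probe sets) and of the 6 Insig arrays (22775) were compared with limma 3.58.1 (R 4.3.3), with Benjamini-Hochberg adjustment over all probe sets kept and calls at an adjusted p under 0.05. The 4 genes passed the filter in both fits. With several probe sets, a gene was read from the one with the highest mean. The two-way analysis of variance of the study's methods was not repeated, since ScapΔ/Δ arrays of E17.5 were not analysed here. Pairs of genes were compared with exact permutation tests. The fit was tested on simulated data.

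The 4 genes, the gene lists and the rule for named genes were chosen with earlier results of these data known. Named are the 4 genes, list genes that passed (up to 4 per list by size), key list genes whatever their values, and the 5 genes most like each member by Pearson r. Scd1, Srebf1, Cebpd, Foxa1, Il33, Hc, the counts without KO16 or without KO17 and KO18 for the lists, and the pairs and ranges without KO17 and KO18 were added after values were seen. Alternatives were no filter, a stricter one (50th percentile), array weights, a spread that follows intensity, scaling by quantiles or by the median, a joint fit or a fit of 2 groups, the methods' Student test and leaving out arrays. Python 3.11.15, pandas 2.3.3, scipy 1.17.1 and matplotlib 3.10.9 were used.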

Additional observations from a re-analysis of the deposited data

How the results depend on the processing

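Of 496 recalculated differences of the 4 genes, 426 kept their direction and side of the threshold, 38 no longer passed, 14 newly passed and 18 turned sign. Those of Sftpa1 and Sftpb between ScapΔ/Δ and control lungs stayed negative at both ages under every alternative run. No paired analysis was possible because the array numbers of the labels are used once each and pair no lungs across groups. The causes of the shifts below were not tested.

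After quantile normalization Sftpc turned to -0.04 at PN1, -0.09 for the difference between ages, 0.04 with age in controls, -0.05 with age in ScapΔ/Δ lungs and -0.01 in the Insig line, and Sftpa1 with age in ScapΔ/Δ lungs (-0.85) no longer passed. After median centring Sftpc turned to -0.04 at PN1, -0.09 for the difference between ages and -0.11 with age in ScapΔ/Δ lungs, where Sftpd (0.34) no longer passed. With array weights Sftpc at E18.5 became -0.0023 and Sftpa1 with age in controls -0.0001. The deleted lungs of PN1 had weights of 0.0489 (KO16), 10 (KO17) and 0.787 (KO18), so that KO17 counted most and KO16 hardly at all. Newly past the threshold at PN1 in this weighted fit were Sftpa1 (-2.04), Sftpb (-0.69) and Sftpc (0.13). Of 22800 probe sets, 9418 passed there with a negative difference and 6108 with a positive one. For the difference between ages Sftpa1 (-1.46) and Sftpb (-0.50) newly passed, beside 8347 negative and 6338 positive probe sets. In the Insig line Sftpa1 (0.89), Sftpb (0.51) and Sftpd (1.12) newly passed, beside 4194 positive and 4172 negative of 22775. The largest weights there were those of KO23 (6.69) and C20 (2.3), which lie on opposite sides of the split of the E17.5 arrays. With all 18 arrays in 1 fit Sftpa1 (-1.85, adjusted p = 0.0273 in limma) and Sftpb (-0.57, adjusted p = 0.0368) passed at PN1. Of 22717 probe sets in that fit, 1948 passed at PN1 with a negative difference and 1047 with a positive one. Sftpd with age in controls (0.84) and Sftpd (0.52) and Sftpb (-0.33) with age in ScapΔ/Δ lungs did not pass in it. The age differences of Sftpa1 (-0.99), Sftpd (0.52) and Sftpb (-0.33) in ScapΔ/Δ lungs also did not pass with only the 2 groups in the fit or by the methods' Student test, which lost Sftpd with age in controls (0.84) too, and without a filter Sftpa1 (-0.99) did not pass. Without KO17 and KO18 these 3 were -0.21, 0.65 and -0.13 and did not pass.

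Leaving out 1 array at a time, at E18.5 Sftpa1 ranged from -1.19 to -0.65, Sftpb from -0.23 to -0.18, Sftpc from -0.01 to 0.02 and Sftpd from 0.04 to 0.24. At PN1 they ranged from -2.24 to -1.55, -0.68 to -0.51, 0.07 to 0.11 and -0.30 to -0.13. The difference between ages ranged from -1.40 to -0.66, -0.47 to -0.31, 0.06 to 0.11 and -0.43 to -0.23, in the same order of genes. With age in controls they ranged from -0.02 to 0.06, 0.01 to 0.06, -0.03 to -0.01 and 0.77 to 0.95, and in ScapΔ/Δ lungs from -1.38 to -0.64, -0.43 to -0.27, 0.04 to 0.08 and 0.41 to 0.61. In the Insig line they ranged from -0.13 to 0.56, 0.0015 to 0.36, -0.02 to 0.03 and 0.15 to 0.86.

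The number of probe sets past an adjusted p of 0.05 varied more than the values of the 4 genes. At E18.5 it was 2, against 5 with all arrays in 1 fit, 2558 with array weights, 0 after median centring and by the Student test, 1 without a filter and after quantile normalization, 21 without KO17 and KO18, and 0 to 99 with 1 array left out. At PN1 it was 2, against 2995 with all arrays in 1 fit, 15526 with array weights, 18 without a filter, 0 by the Student test and without KO17 and KO18, and 1 to 14010 with 1 array left out, the highest without KO16. For the difference between ages it was 0, against 14685 with array weights and 0 to 13219 with 1 array left out. With age it was 589 in controls, against 2846 with array weights, 292 after median centring, 2516 without KO17 and KO18 and 140 to 2718 with 1 array left out, and 8581 in ScapΔ/Δ lungs, against 17351, 5 by the Student test, 1414 without KO17 and KO18 and 1716 to 16316. In the Insig line it was 0, with 8366 under array weights and 0 whichever array was left out.

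Each group holds 3 lungs, the values of Sftpc lie near the top of the scale, and whole lung does not separate cell number from RNA per cell.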
